A study of Homo sapiens with 9 samples.

Results

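The genes described here are the 3 peroxisome proliferator-activated receptors (PPARA, PPARD and PPARG) and 6 genes of fatty acid use that PPARs are reported to control (CPT1A, PDK4, PLIN2, ANGPTL4, ACADVL and HADHA), in clones of K562 cells with mutant or wild-type SRSF2. They were found by symbol among 63677 gene IDs, all 9 had a row, and 8 passed the filter on low counts. PPARA was picked on its measured rise in P95H clones, so its values between P95H and WT clones are a description, and the question asked of the other genes is whether the reported targets follow it. As they were measured in the same contrast, their own values there are also given as a description beside the share of all genes.

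K562 is an erythroleukaemia line derived from chronic myeloid leukaemia, and SRSF2 is a splicing factor in which the P95H substitution recurs in myeloid neoplasms. RNA was sequenced from 4 clones carrying SRSF2 P95H (P9, P15, P22 and P38), from the parental line, labelled wild-type for SRSF2, and from 4 clones with wild-type SRSF2 (W19, W33, W36 and W42, called WT). The series was set up to study splicing, and the values used here are read counts per gene. Each clone gave 1 library, and the sources used here do not state whether clones of a genotype arose from separate editing events, so a p-value reflects how much single clones differ. No treatment, PPAR ligand or time point is given in the labels for any group.

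PPARs are nuclear receptors that bind fatty acids and related ligands and act on DNA as heterodimers with retinoid X receptors. PPARα is best known as an inducer of fatty acid oxidation in liver and heart, PPARδ acts in many tissues, and PPARγ is the receptor of fat cells. Long-chain fatty acids reach the mitochondrial matrix as carnitine esters made by CPT1A and are then shortened by enzymes that include ACADVL and HADHA, while PDK4 holds back the oxidation of pyruvate. The activity of a PPAR depends on its ligands as well as on its amount, and RNA levels do not measure it.

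To show where these genes start, the 250 bases before the start site are printed for the receptor picked for its rise (PPARA), for the receptor without reads in the clones (PPARG) and for the 2 target genes with the smallest unadjusted p (PLIN2 and PDK4), a choice made after their values were seen. The sequences are those of RefSeq on GRCh38.p14, each written 5′ to 3′ on the strand of the gene, with capitals marking the half-site AGGTCA that nuclear receptors bind. PPARA has 2 annotated windows and PPARG has 6, and the most upstream of each is printed. They lie at chr22:46150276-46150525 (+ strand) for PPARA, chr3:12287118-12287367 (+ strand) for PPARG, chr7:95596517-95596766 (- strand) for PDK4 and chr9:19127493-19127742 (- strand) for PLIN2.
PPARA: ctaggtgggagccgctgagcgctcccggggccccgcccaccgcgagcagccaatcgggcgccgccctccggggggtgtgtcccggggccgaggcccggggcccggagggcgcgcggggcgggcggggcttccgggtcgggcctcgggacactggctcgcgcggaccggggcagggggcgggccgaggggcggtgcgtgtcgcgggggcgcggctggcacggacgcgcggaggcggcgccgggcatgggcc
PPARG: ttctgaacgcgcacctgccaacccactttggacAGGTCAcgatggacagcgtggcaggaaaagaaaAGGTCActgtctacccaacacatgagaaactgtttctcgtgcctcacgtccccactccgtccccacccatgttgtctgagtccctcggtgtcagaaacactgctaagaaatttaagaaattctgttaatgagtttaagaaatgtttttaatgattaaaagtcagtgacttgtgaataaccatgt
PDK4: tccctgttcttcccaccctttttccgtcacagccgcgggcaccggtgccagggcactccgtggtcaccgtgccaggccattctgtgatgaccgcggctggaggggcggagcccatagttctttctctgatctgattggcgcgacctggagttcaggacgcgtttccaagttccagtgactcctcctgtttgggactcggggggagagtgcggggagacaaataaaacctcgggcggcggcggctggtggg
PLIN2: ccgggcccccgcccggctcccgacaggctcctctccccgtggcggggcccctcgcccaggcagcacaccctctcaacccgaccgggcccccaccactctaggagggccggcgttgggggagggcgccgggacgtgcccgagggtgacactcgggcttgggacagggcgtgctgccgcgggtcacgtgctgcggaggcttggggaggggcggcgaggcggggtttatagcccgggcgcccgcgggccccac

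The PPARA window shown is 84.4% G and C and holds 41 CG dinucleotides, and the PLIN2 window is 78% G and C with 28. The PDK4 window is 62.8% G and C with 19 CG dinucleotides. The PPARG window shown, the most upstream of 6 for the one receptor gene without reads in the clones, is 44.8% G and C with 8 CG dinucleotides. It holds 2 half-sites. With the 50 bases after the start included, the 6 PPARG windows ranged from 41 to 56.7% G and C. Over all windows of that table the median was 58% G and C (quartiles 46.4 and 68%) and 11 CG dinucleotides (quartiles 3 and 23). All 9 genes had at least 1 window, 16 in all, each of 250 bases before and 50 after the start. On both strands AGGTCA was found in 3 of the 16, all 3 at PPARG, which has 6 windows, against 13.8% of all 35114 windows. Of these PPARG windows, those starting at chr3:12288810 and chr3:12288820 overlap and hold the same site. The direct repeat AGGTCANAGGTCA, the PPAR response element, was searched on both strands with up to 2 mismatches, and its matches also contain the half-site when exact. It was found in 0 of the 16 windows, where the closest stretch had 3 mismatches, against 2.97% of all windows. No match says only that these letters are not in these windows.

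Between 24546255 (W33) and 35477328 (parental) reads per library were assigned to genes, so that 3 counts, taken as the floor, stood for 0.0846 to 0.122 CPM (read counts scaled to a common library total), for counting error only. Levels are CPM after TMM scaling, and log2 differences are P95H minus WT from edgeR's quasi-likelihood fit of the 8 clones over 18173 genes, with p-values adjusted over all of them. SRSF2 itself was at 499 ± 62.0 CPM in P95H clones and 489 ± 27.7 CPM in WT clones (SD, n = 4 each), and the counts do not separate its alleles. The 10 erythroid markers checked were all measured (summed level 2320 to 6695 CPM in P95H clones, 3167 CPM in the parental line, 2353 to 4891 CPM in WT clones). Of 6 markers of fat cells, in which PPARG is high, 4 had no read in any library, ADIPOQ, LEP, PLIN1 and FABP4, and the summed level of all 6 was 0.153 to 0.716 CPM in P95H clones, 0.980 CPM in the parental line and 0.368 to 1.51 CPM in WT clones. The 7 hepatocyte markers summed to 0.179 to 0.332 CPM, 0.346 CPM and 0.0727 to 0.445 CPM in the same groups. Markers of fibroblasts summed to 1.28 to 7.07 CPM in P95H clones, 4.70 CPM in the parental line and 2.80 to 10.6 CPM in WT clones, and lymphoid markers to 4.63 to 22.5, 21.8 and 13.3 to 33.1 CPM.

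Of the receptors, PPARA was higher in P95H clones, PPARD was closer between the groups and PPARG was not detected in any clone. PPARA (ENSG00000186951, chromosome 22) was at 16.3, 19.7, 17.1 and 12.7 CPM in P9, P15, P22 and P38, against 8.50 CPM in the parental line and 9.06, 6.85, 9.58 and 8.53 CPM in W19, W33, W36 and W42. All 4 P95H clones lay above all WT clones and above the parental line, and the lowest of them, P38, was nearest to the WT clones. The means were 16.5 ± 2.90 CPM in P95H clones and 8.50 ± 1.19 CPM in WT clones (SD, n = 4 each), 1.94-fold apart with a 95% interval of 1.48 to 2.56 (log2 0.96, SE 0.18). In bulk RNA, fewer cells that express a gene and less RNA per cell cannot be told apart.

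PPARD (ENSG00000112033, chromosome 6), the form found in most tissues, was at 25.5, 34.5, 23.8 and 21.7 CPM in P9, P15, P22 and P38, against 23.8 CPM in the parental line and 19.5, 22.4, 19.9 and 20.5 CPM in W19, W33, W36 and W42. P15 stood highest, 3 of the 4 P95H clones lay above every WT clone, and P38 fell inside the WT range, so the groups overlap. The log2 difference was 0.37 (SE 0.15, 95% interval 0.025 to 0.71, edgeR adjusted p = 0.402), and without P15 it was 0.21 with an interval from -0.056 to 0.48.

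PPARG (ENSG00000132170, chromosome 3) had 0 reads in all 8 clones, which allows a level of up to 0.0920 CPM in P22 and up to 0.122 CPM in W33, the clones with the lowest and highest floor. The parental library held 2 reads of PPARG (0.0576 CPM), which is under its own floor of 0.0846 CPM. Its presence was therefore not detectable at this depth in either genotype, and no difference can be given.

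Set per kilobase of exon, PPARD was the more abundant receptor in every library. PPARD averaged 5.92 ± 1.26 CPM per kb in P95H clones and 4.61 ± 0.282 CPM per kb in WT clones, and PPARA 1.24 ± 0.219 and 0.643 ± 0.0897 CPM per kb (SD, n = 4 each). The PPARA level per length was 0.193 to 0.242 of that of PPARD in P95H clones, 0.121 in the parental line and 0.103 to 0.162 in WT clones. The ratio was above that of every WT clone in all 4 P95H clones, and PPARA was the less abundant of both receptors in each library. As PPARA was picked for its rise in P95H clones, that separation of the ratio is a description and no test.

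The exon length used is the union over all annotated exons of GENCODE 29, so the order of levels between genes depends on how much of each gene is used. On that scale HADHA was the most abundant of the genes, at 84.2 ± 6.44 CPM per kb in P95H clones and 86.1 ± 6.17 CPM per kb in WT clones, followed by ACADVL at 46.2 ± 4.28 and 48.9 ± 8.74 CPM per kb. PLIN2 (9.66 ± 2.78 in P95H and 6.36 ± 0.563 CPM per kb in WT clones) and CPT1A (8.95 ± 2.72 and 8.01 ± 1.71 CPM per kb) came next, and their ranges of mean ± SD overlap in both groups. PPARD followed, overlapping CPT1A and PLIN2 in P95H clones. Lowest were PDK4 (1.97 ± 2.15 in P95H and 0.639 ± 0.367 CPM per kb in WT clones), ANGPTL4 (1.91 ± 2.20 and 0.962 ± 0.420 CPM per kb) and PPARA, which do not differ beyond their spread in either group.

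The 6 target genes did not move together between P95H and WT clones. PDK4, ANGPTL4 and PLIN2 had log2 differences of 0.61 or more, CPT1A 0.17, and ACADVL and HADHA were close to 0. PLIN2 and PDK4 were higher at an unadjusted p under 0.05 and none was lower, where 6.07% of all genes were higher and 5.65% lower at that p. In the fit, 0% of the 18173 genes and none of the 8 genes tested passed at an adjusted p under 0.05 (smallest adjusted p of any gene 0.128, and 2130 genes at an unadjusted p under 0.05). DESeq2 called 1.44% of genes, of which PPARA was the one member, and limma-voom called 0.187% of genes with no member among them. Every P95H clone lay above every WT clone for 3.94% of genes and below for 4.63%, and PPARA was the one member in the first set, with none in the other. PPARA was picked for its rise in this same contrast, so neither its DESeq2 call nor its lack of overlap is a test of it.

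**Figure D1:**
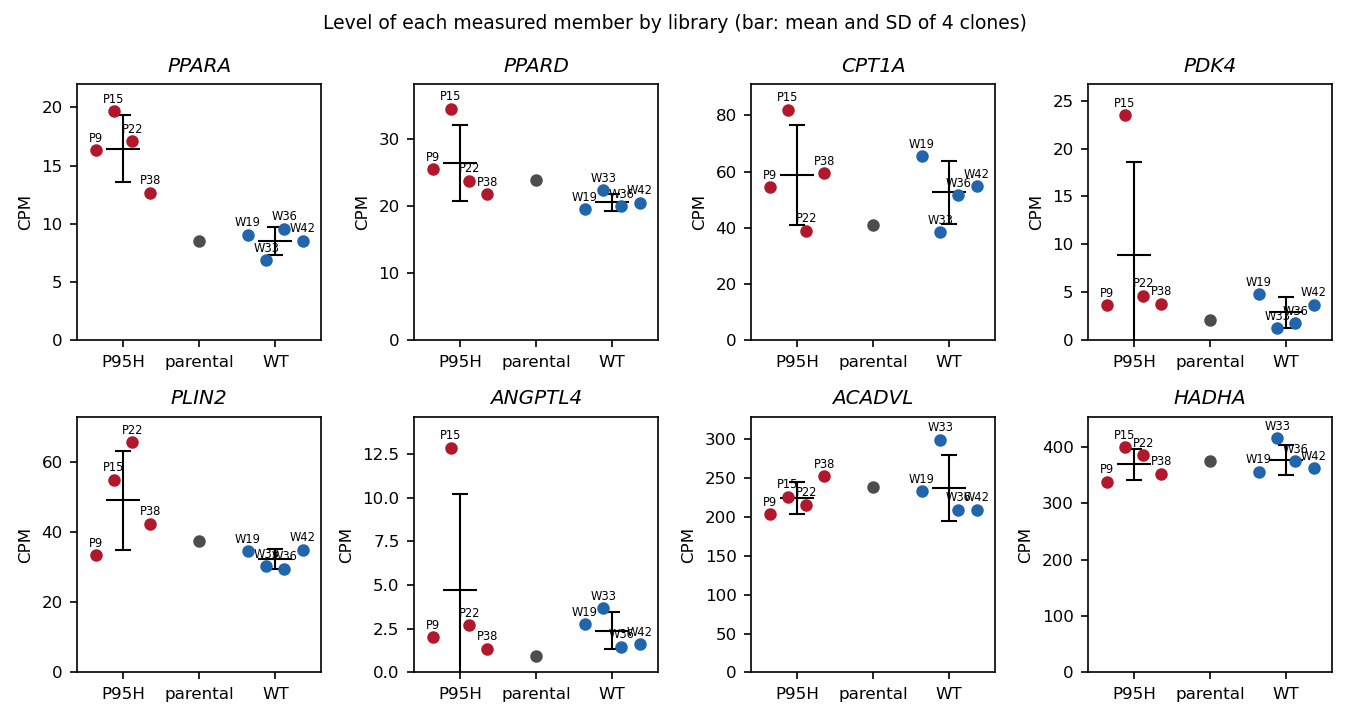
Level in CPM after TMM scaling of the 8 measured genes in each library, with P95H clones on the left, the parental line in the middle and WT clones on the right, and a bar for the mean and SD of 4 clones. All 4 P95H clones lie above the WT clones for PPARA, while PDK4 (23.5 CPM) and ANGPTL4 (12.9 CPM) stand high in P15 alone.

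Of the genes that meet fatty acids at the mitochondrion, CPT1A (ENSG00000110090, chromosome 11), which makes the acylcarnitine that enters it and is the controlled step of the pathway, was at 54.5, 82.1, 38.9 and 59.5 CPM in P9, P15, P22 and P38. It was at 41.0 CPM in the parental line and at 65.6, 38.4, 51.5 and 54.9 CPM in W19, W33, W36 and W42. The groups overlap, with P15 above every other library and P22 next to the lowest WT clone, W33. The log2 difference was 0.17 (SE 0.23, 95% interval -0.35 to 0.68, edgeR adjusted p = 0.7995), and it was -0.040 without P15.

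ACADVL (ENSG00000072778, chromosome 17), the dehydrogenase that opens the oxidation of very-long-chain acyl-CoA, was at 203, 227, 216 and 253 CPM in P9, P15, P22 and P38, against 238 CPM in the parental line and 233, 299.7, 209.8 and 209.8 CPM in W19, W33, W36 and W42. The groups overlap, and the most distant library was a WT clone, W33. The log2 difference was -0.073 (SE 0.13, 95% interval -0.37 to 0.22, edgeR adjusted p = 0.854), and it was 0.049 without W33. ACADVL shares 85 exon bases (1.75% of its exons) with DLG4 on the other strand, and the kit does not mark strand.

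HADHA (ENSG00000084754, chromosome 2), the α subunit of the trifunctional protein that carries out the later steps for long chains, was at 339, 399.7, 386 and 353 CPM in P9, P15, P22 and P38, against 376 CPM in the parental line and 357, 417, 375 and 363 CPM in W19, W33, W36 and W42. The groups overlap throughout, with a coefficient of variation of 7.64% in P95H clones, the lowest of the 8 genes there, and 7.16% in WT clones, where PPARD was lower at 6.12%. The log2 difference was -0.022 (SE 0.099, 95% interval -0.24 to 0.20, edgeR adjusted p = 0.946).

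PDK4 (ENSG00000004799, chromosome 7), a kinase that shuts down pyruvate dehydrogenase and so favours fatty acids as fuel, was at 3.67, 23.5, 4.66 and 3.82 CPM in P9, P15, P22 and P38, against 2.10 CPM in the parental line and 4.801, 1.25, 1.80 and 3.71 CPM in W19, W33, W36 and W42. P15 stood 5.80-fold above the mean of the other P95H clones, which all lay inside the WT range. The log2 difference was 1.63 (SE 0.69, 95% interval 0.082 to 3.17, edgeR adjusted p = 0.410) and 0.49 without P15 (interval -0.49 to 1.47). Its unadjusted p of 0.041 was also above 0.05 without W33, W36 or W42.

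ANGPTL4 (ENSG00000167772, chromosome 19), a secreted inhibitor of lipoprotein lipase, was at 2.03, 12.9, 2.72 and 1.36 CPM in P9, P15, P22 and P38, against 0.922 CPM in the parental line and 2.76, 3.69, 1.47 and 1.62 CPM in W19, W33, W36 and W42. Here too P15 was alone, 6.33-fold above the mean of the other P95H clones, and P38 lay below every WT clone. The log2 difference was 1.01 (SE 0.68, 95% interval -0.51 to 2.53, edgeR adjusted p = 0.577), and it was -0.21 without P15.

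PLIN2 (ENSG00000147872, chromosome 9), a protein of the lipid droplet surface, was at 33.4, 55.0, 65.7 and 42.5 CPM in P9, P15, P22 and P38, against 37.5 CPM in the parental line and 34.6, 30.2, 29.6 and 35.0 CPM in W19, W33, W36 and W42. P22, P15 and P38 lay above every WT clone and above the parental line, while P9 lay within the WT range. The means were 49.1 ± 14.2 CPM in P95H clones and 32.4 ± 2.86 CPM in WT clones (SD, n = 4 each; log2 0.61, SE 0.20, 95% interval 0.17 to 1.05, edgeR adjusted p = 0.334). The log2 difference of PLIN2 was 0.56 without P15 and 0.43 without P22, the clone in which it was highest.

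Side by side, the 95% interval of PPARA ran from 0.56 to 1.35, and those of ACADVL and HADHA ended below it, at 0.22 and 0.20. The intervals of CPT1A (up to 0.68), PLIN2 (up to 1.05), PDK4 (up to 3.17) and ANGPTL4 (up to 2.53) overlapped that of PPARA. The difference between a target and PPARA was not tested, and PPARA was picked for a high value in this contrast. The median log2 difference of the 6 targets was 0.39, beside 0.014 for all genes tested, and without P15 it was -0.051.

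**Figure D2:**
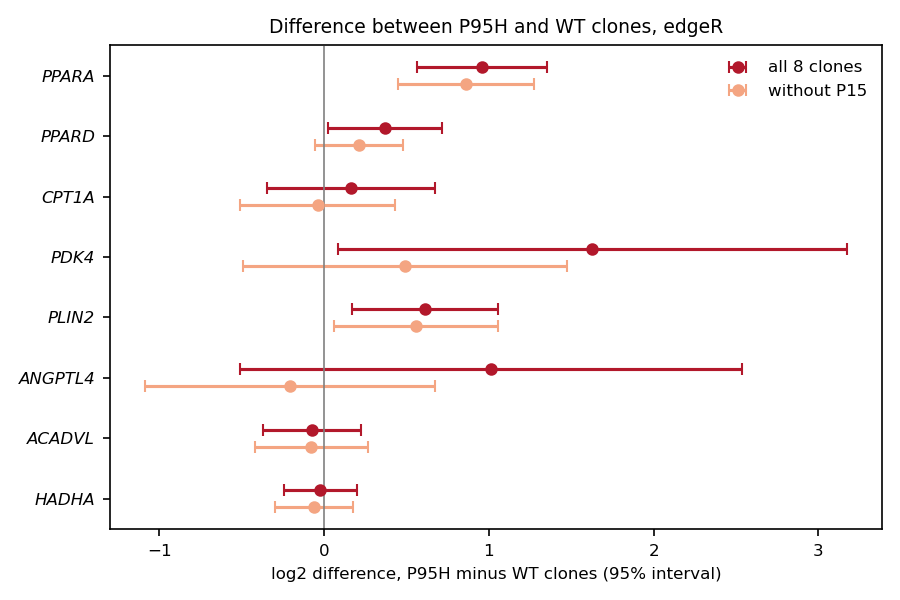
Log2 difference of P95H minus WT clones for the 8 measured genes from edgeR, with 95% intervals, for all 8 clones (dark) and with P15 left out (light). PPARA is at 0.96 and 0.86, while ANGPTL4 is at 1.01 with P15 and -0.21 without it.

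P15 was the clone in which the receptor and several targets were high at once. Of the 8 genes tested, 5 were highest in P15 among the 9 libraries (PPARA, PPARD, CPT1A, PDK4 and ANGPTL4), where P15 was the highest library for 14.2% of all genes. PPARA was picked for its rise in P95H clones, so its own place in that count is no support. The median deviation of the 6 targets from their WT mean was 0.72 in P15 on the log2 scale, against 0.16 in P22, 0.15 in P38, -0.040 in P9 and -0.13 in the parental line. The WT clones ranged from -0.15 in W36 to 0.20 in W19, so P22, P38 and P9 fell within them. P15 also had the highest summed level of erythroid markers, 6695 CPM, and 5 of the 10 markers were at their highest there. The part of that in the levels of PDK4 and ANGPTL4 was not tested.

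In P9 no target lay above the WT range, and in P38 only PLIN2 did. P9 had PPARA at 0.95 above its WT mean on the log2 scale, with deviations of 0.051 for PLIN2, 0.078 for CPT1A, -0.13 for ANGPTL4 and -0.15 for HADHA. In P22, PLIN2 had its highest level of all libraries (deviation 1.02) while CPT1A was below its WT mean (-0.41). PLIN2 was the only target above the WT range in P22 as well.

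The parental line, which the choice of PPARA did not use, was set against the WT clones, which it did use. In a fit of all 9 libraries, where the single parental library was given the spread of the clones, 0 of the 8 genes had an adjusted p under 0.05, where 0.00485% of 20636 genes did (1 gene, KYNU). None of the 8 genes had an unadjusted p under 0.05, and 354 of the genes tested did. PPARA differed by -0.0016 on the log2 scale (SE 0.27, 95% interval -0.61 to 0.61), with 8.50 CPM in the parental line beside a WT mean of 8.50 CPM. The ANGPTL4 level of 0.922 CPM in the parental line was the lowest of all libraries, with a log2 difference of -1.36 that has an interval from -4.10 to 1.37.

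The genes were also compared by how they vary among clones of one genotype, which the choice did not use. With each group's mean removed, Pearson's r of log2 CPM with PPARA over the 8 clones was 0.67 for PDK4, 0.47 for PPARD, 0.45 for CPT1A, 0.43 for ANGPTL4 and 0.36 for PLIN2. It was 0.032 for HADHA and -0.72 for ACADVL. Over 15642 genes of at least 1 CPM the quartiles of r were -0.37, 0.0085 and 0.36, so PDK4, PPARD, CPT1A and ANGPTL4 lay above the upper quartile, PLIN2 just under it, and ACADVL below the lower one. PDK4, PPARD, CPT1A and ANGPTL4, like PPARA, were at their highest in P15. No r was computed without P15, so how far these r rest on that clone was not tested. They do not show that the genes follow PPARA among the other clones. Within a clone all values come from 1 library of its own depth, and these r are a description. The 5 genes most like PPARA by this measure were AL137802.2 (0.98), HPS3, a subunit of a complex for lysosome-related organelles (0.97), ATXN7L1 (0.96), NKIRAS2 (0.96) and NMT1, which attaches myristate to proteins (0.96). NMT1, for example, was at 202 CPM in P95H clones and 191 CPM in WT clones (log2 0.086, SE 0.094). With group means removed, r reflects only the spread within groups for every gene.

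In the neighbourhood of PPARA, genes did not share its difference as a block. The 10 nearest measured genes on chromosome 22, 5 on each side, had a median log2 difference of -0.043, with 5 above 0. PKDREJ, the second measured gene after PPARA and on the other strand, was higher like PPARA (1.49 ± 0.456 CPM in P95H clones and 0.617 ± 0.204 CPM in WT clones, SD, n = 4 each, log2 1.27, SE 0.34). It was 1 of 3 neighbours with an unadjusted p under 0.05, and the others were lower, NUP50-DT (log2 -0.63, SE 0.26) and KIAA0930 (log2 -0.41, SE 0.18). Over all genes tested, 11.7% had an unadjusted p under 0.05 in either direction. CDPF1, between PPARA and PKDREJ, was at log2 -0.32 and did not pass at that p (7.94 ± 0.657 CPM in P95H clones and 9.98 ± 1.37 CPM in WT clones, SD, n = 4 each), and TTC38 was at log2 0.18. PKDREJ shares no annotated exon base with PPARA.

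**Figure D3:**
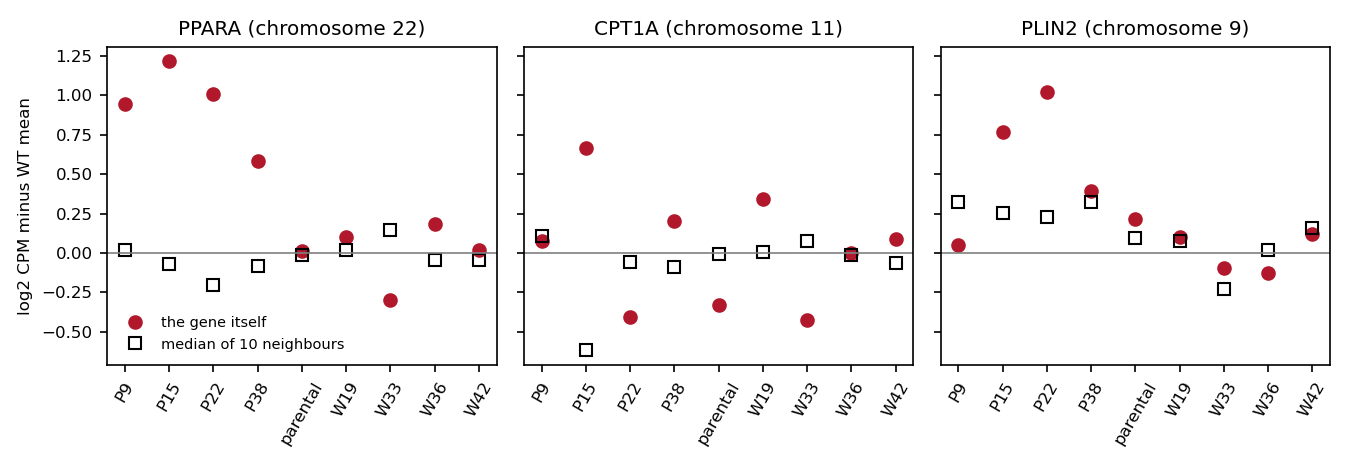
Log2 CPM minus the WT mean in each library for PPARA, CPT1A and PLIN2 (filled circles) and the median of the 10 nearest measured genes (open squares). The neighbours of PPARA stay between -0.21 and 0.14, and those of CPT1A are at -0.62 in P15. Those of PLIN2 are at 0.23 to 0.32 in the 4 P95H clones and 0.092 in the parental line. They are at 0.018 to 0.16 in W19, W36 and W42, and at -0.23 in W33.

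The 10 neighbours of CPT1A on chromosome 11 had a median log2 difference of -0.055, with 3 above 0, close to the -0.043 of the PPARA neighbours. In P15 the neighbours of CPT1A were lower as a group, with a median of 0.62 below the WT mean (deviation -0.62), while CPT1A itself was 0.67 above it. All 10 neighbours of PLIN2 on chromosome 9 had a log2 difference above 0, with a median of 0.28 beside 0.61 for PLIN2 and 0.014 for all genes tested. Of the 10, 1 had an unadjusted p under 0.05, beside 11.7% of all genes tested in either direction. The median of the 10 was 0.32 in P9, where PLIN2 was at 0.051, and 0.23 in P22, where PLIN2 was at 1.02. Among WT clones that median ran from -0.23 in W33 to 0.16 in W42, and it was 0.092 in the parental line. The part of the region in the PLIN2 level was not tested. The neighbours of PPARD, PDK4, HADHA, ACADVL and ANGPTL4 had medians from -0.15 (ANGPTL4) to 0.082 (PDK4).

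In each of the wider lists, counts at an unadjusted p under 0.05 stand beside the 6.07% of all genes that were higher and the 5.65% that were lower at that p, a median log2 difference of 0.014 over all genes, and 0 genes past an adjusted p in any list. Of 19 measured partners and cofactors of PPARs, 3 were higher at an unadjusted p under 0.05 and 0 lower (median log2 0.081), and 2 were higher and 1 lower without P15. NCOA1, a p160 coactivator of nuclear receptors, was at 42.3, 42.7, 43.3 and 34.3 CPM in P9, P15, P22 and P38, against 29.3 CPM in the parental line and 28.7, 21.5, 28.8 and 31.1 CPM in W19, W33, W36 and W42. Its groups do not overlap (log2 0.57, SE 0.15, edgeR adjusted p = 0.293). NCOA2, of the same family, averaged 20.2 ± 6.06 CPM in P95H clones and 12.3 ± 1.74 CPM in WT clones (log2 0.72, SE 0.23), and CREBBP, an acetyltransferase, 59.6 ± 7.39 and 48.8 ± 5.41 CPM (log2 0.29, SE 0.13). Named for their role alone, RXRA averaged 38.1 ± 8.64 CPM in P95H clones and 36.4 ± 4.502 CPM in WT clones, and RXRB 37.3 ± 1.04 and 36.3 ± 3.13 CPM. PPARGC1A, the coactivator of oxidative tissues, had no read in any library, and its relative PPARGC1B averaged 33.5 ± 5.57 CPM in P95H clones and 27.5 ± 4.72 CPM in WT clones.

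Of the 49 genes in the longer list of reported PPAR targets 31 were measured, 4 were higher at an unadjusted p under 0.05 (KLF10, PLIN2, CAT and PDK4) and 2 lower (SLC27A1 and PLIN4), with a median log2 difference of 0.045, beside 6.07% of all genes higher and 5.65% lower. Without P15, 2 were higher and 3 lower. KLF10, a transcriptional repressor induced by TGF-β, was at 27.1, 37.6, 25.2 and 28.4 CPM in P9, P15, P22 and P38, against 19.6 CPM in the parental line and 22.9, 21.96, 18.9 and 19.4 CPM in W19, W33, W36 and W42, with no overlap (log2 0.52, SE 0.15). SLC27A1, a fatty acid transporter, went the other way with no overlap, at 4.69 ± 0.373 CPM in P95H clones and 6.72 ± 1.30 CPM in WT clones (log2 -0.51, SE 0.18). PLIN4, a droplet protein of low level that was chosen for naming after its values were seen, averaged 0.365 ± 0.0624 CPM in P95H clones and 0.849 ± 0.223 CPM in WT clones (log2 -1.19, SE 0.29). CD36, a fatty acid receptor named for its role, had no read in any library.

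**Figure D4:**
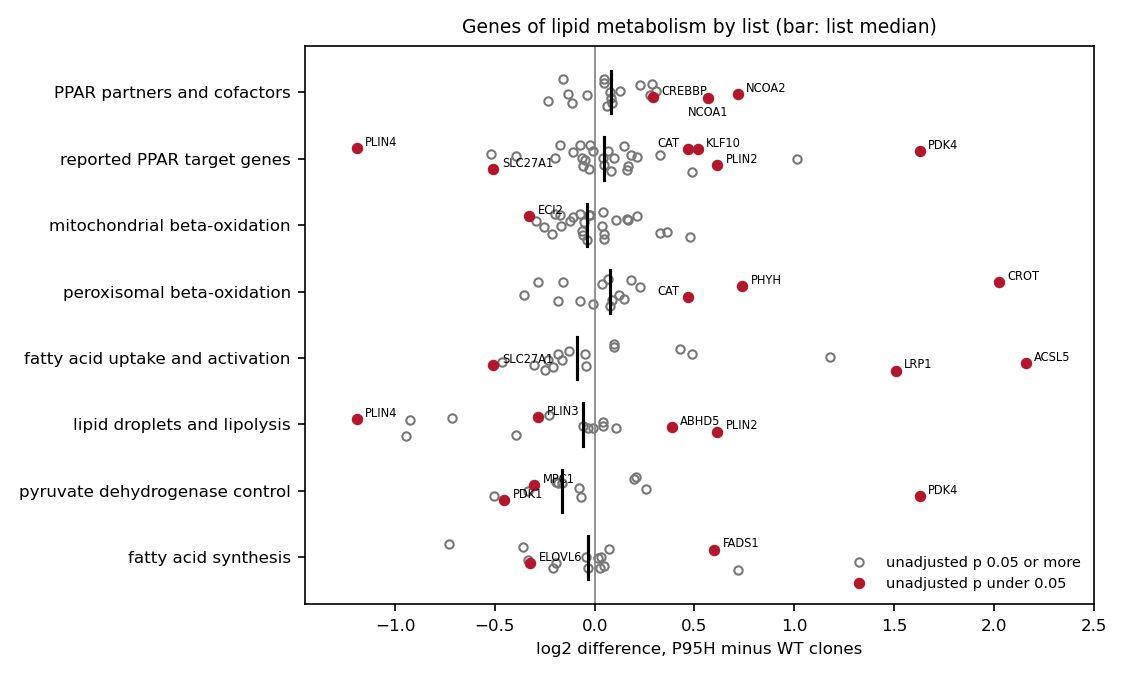
Log2 difference of P95H minus WT clones for every measured gene of 8 lists of lipid metabolism, with filled points for an unadjusted p under 0.05 and a bar at each list median. The medians lie between -0.16 and 0.081, and genes past that p stand on both sides of 0 in 5 of the lists.

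Of 27 measured genes of mitochondrial β-oxidation, 0 were higher and 1 lower at an unadjusted p under 0.05 (median log2 -0.040). With 1 clone left out, 2 were higher without P22 and 1 without P38 or W33, while 2 were lower without P15 or W42 and 0 without P9 or P22. ECI2, the gene lower with all 8 clones, an enoyl-CoA isomerase for unsaturated chains, averaged 125 ± 5.14 CPM in P95H clones and 159 ± 27.6 CPM in WT clones with no overlap (log2 -0.33, SE 0.12). ACAD10, an acyl-CoA dehydrogenase, was at log2 0.36 (SE 0.17) and PCCA, of propionyl-CoA carboxylase, at -0.26 (SE 0.12). HADHB, the partner subunit of HADHA, was named for that and averaged 149 ± 19.8 CPM in P95H clones and 157 ± 5.74 CPM in WT clones, and CPT2, the partner of CPT1A on the inner membrane, 34.4 ± 7.07 and 29.9 ± 2.38 CPM.

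Of 17 measured genes of the peroxisomal list, 3 were higher and 0 lower (median log2 0.075), beside 6.07% and 5.65% of all genes, and without P15 1 was higher and 2 lower. Without W19 1 was higher, and without W42 1 was lower. PHYH was at 23.3, 25, 29.5 and 20.9 CPM in P9, P15, P22 and P38, against 21.0 CPM in the parental line and 15.4, 18.4, 12.6 and 13.3 CPM in W19, W33, W36 and W42, with no overlap between P95H and WT clones, while the parental line lay just above P38 (log2 0.74, SE 0.16, edgeR adjusted p = 0.282). PHYH acts in α-oxidation of phytanic acid and CAT breaks down hydrogen peroxide, so neither is an enzyme of β-oxidation itself. CAT averaged 126 ± 27.7 CPM in P95H clones and 91.3 ± 17.3 CPM in WT clones (log2 0.47, SE 0.19). CROT, which makes carnitine esters of medium-chain products and was named after its values were seen, averaged 1.38 ± 1.27 CPM in P95H clones and 0.349 ± 0.198 CPM in WT clones. HSD17B4, a multifunctional enzyme of peroxisomal β-oxidation, was at log2 0.23 (SE 0.12).

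For uptake and activation of fatty acids, 2 of 18 measured genes were higher and 1, SLC27A1, lower (median log2 -0.089), beside 6.07% and 5.65% of all genes. Without W33 or W42 1 was higher, and without P15 or W36 2 were lower. Both higher genes rested on 1 clone for much of their difference. LRP1, a lipoprotein receptor, reached 44.3 CPM in P15, with P9, P22 and P38 at 9.53 to 12.7 CPM, against 3.66 CPM in the parental line and 5.44 to 7.92 CPM in WT clones. ACSL5, which makes acyl-CoA, reached 12.4 CPM in P22, with P9, P15 and P38 at 1.03 to 1.76 CPM, against 2.82 CPM in the parental line and 0.699 to 1.22 CPM in WT clones. Of 15 measured genes of lipid droplets and lipolysis, 2 were higher and 2 lower (median log2 -0.059), with 1 lower without P15, P38 or W33 and 4 lower without W42. ABHD5, which activates the triglyceride lipase of the droplet, averaged 48.2 ± 4.12 CPM in P95H clones and 37.1 ± 2.62 CPM in WT clones with no overlap (log2 0.39, SE 0.11). PLIN3, a droplet protein related to PLIN2, averaged 55.2 ± 6.68 CPM in P95H clones and 67.7 ± 5.14 CPM in WT clones (log2 -0.28, SE 0.11).

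In the control of pyruvate dehydrogenase, PDK4 was the 1 gene of 13 that was higher, and 2 were lower (median log2 -0.16), with 0 higher without P15, W33, W36 or W42 and 4 lower without P38. MPC1, a subunit of the mitochondrial pyruvate carrier, was at 78.3, 68.2, 63.5 and 71.7 CPM in P9, P15, P22 and P38, against 93.1 CPM in the parental line and 80.2, 89.9, 92.9 and 86.5 CPM in W19, W33, W36 and W42, with no overlap (log2 -0.30, SE 0.10, edgeR adjusted p = 0.336). PDK1, a kinase of the same family as PDK4, averaged 21.1 ± 2.57 CPM in P95H clones and 28.98 ± 5.15 CPM in WT clones (log2 -0.45, SE 0.16). Of 15 measured genes of fatty acid synthesis, 1 was higher and 1 lower (median log2 -0.032), with 5 lower without P15 and 2 higher without P38. FADS1, a desaturase of polyunsaturated fatty acids, averaged 183 ± 36.7 CPM in P95H clones and 121 ± 22.4 CPM in WT clones (log2 0.60, SE 0.18), with 194 CPM in the parental line. ELOVL6, an elongase, averaged 98.7 ± 6.70 CPM in P95H clones and 124 ± 12.9 CPM in WT clones (log2 -0.32, SE 0.11), both genes with no overlap, and SLC25A1, the citrate carrier, was at log2 -0.36 (SE 0.21).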

How the data were processed

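RNA was sequenced from 9 cultures of K562. For each Ensembl gene the authors deposited a raw count of reads, made with bcl2fastq, TopHat2 2.0.4 and HTSeq 0.6.1p1 on GRCh37, per the submitters' processing notes, and the file labels name Ensembl release 75. The sources used here give no alignment, overlap or strand setting. Per the labels' protocols, total RNA was isolated by kit, polyadenylated RNA was selected and libraries were sequenced on a HiSeq2000. Summary entries that name no gene were kept out of library sizes: no feature (47.6 to 49.1% of reads listed), ambiguous (2.24 to 2.55%) and more than 1 alignment (5.06 to 6.06%). Symbols, chromosomes, exon lengths and neighbours came from GENCODE 29 (GRCh38) by gene ID, so no coordinates are given from it. Promoters came from RefSeq.

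P95H and WT clones were compared with edgeR 4.0.16 in R 4.3.3 (filterByExpr, TMM, robust quasi-likelihood F test, Benjamini-Hochberg adjustment over 18173 genes, threshold 0.05). The parental line was compared in a fit of all 9 libraries. Log2 CPM used a prior count of 2. Also tried were scaling by RLE or upper quartiles, leaving out the filter, a filter of 1 CPM in 4 libraries, DESeq2 1.42.0, limma-voom (limma 3.58.1), a 3-group fit, other prior counts and clones left out. The edgeR fit was tested on simulated data.

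The members and lists were chosen with earlier results of these data known. Genes named are the members, up to 3 of each list by unadjusted p with a mean of at least 1 CPM, the 5 most like PPARA, and neighbours where they bear on a member. Of the list entries, 1 had no matching gene ID. Clone numbers are not shared between the groups.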

Additional observations from a re-analysis of the deposited data

Results flagged for a closer look

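In 74 groups of 4 clones tested for a value far from the other 3, 6 were marked. Chance alone marks about 1 in 20 where values are normally spread, which was not checked for these CPM. LRP1, ACSL5, NCOA1 and PLIN3 had been named for a small p between P95H and WT clones, so they were chosen on these same values. All 6 were P95H groups, and each value here is the clone's level in CPM.

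In P15, PDK4 was at 23.5 CPM, against 3.67 to 4.66 CPM in the other P95H clones. In the same clone ANGPTL4 was at 12.9 CPM, against 1.36 to 2.72 CPM, and LRP1 at 44.3 CPM, against 9.53 to 12.7 CPM.

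In P22, ACSL5 was at 12.4 CPM, against 1.03 to 1.76 CPM in the other P95H clones, and PLIN3 at 65.2 CPM, against 51.5 to 52.4 CPM. NCOA1 was lowest in P38, at 34.3 CPM, against 42.3 to 43.3 CPM.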

How the results depend on the processing

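The count of genes past an adjusted p of 0.05, 0 in the edgeR fit, was 2 with no filter, 261 with DESeq2, 34 with limma-voom, 5 without W33 and P22, and 0 to 1 with 1 clone left out (1 without W19). Members past it were 1 with DESeq2 (PPARA, which was picked for its rise in this contrast) and 0 otherwise. With 1 clone left out, the median log2 difference of the 6 targets ranged from -0.051 (without P15) to 0.47, CPT1A from -0.040 to 0.31, ANGPTL4 from -0.21 to 1.32, ACADVL from -0.14 to 0.049 and HADHA from -0.062 to 0.022, each of them changing sign. ACADVL was also at 0.042 with limma-voom and 0.064 without W33 and P22. The cause of these changes was not tested. Of 128 alternatives for single members, 119 kept direction and side of the threshold, 8 changed sign and 1 (PPARA with DESeq2) newly passed. PPARA ranged from 0.77 to 1.07. Of the alternative counts over the lists, 238 stayed within 1.5 times and 50 did not. No paired analysis was possible because clone numbers are not shared between the groups. Depth leaves PPARG undetectable below 0.0846 to 0.122 CPM. PDK4 and ANGPTL4 had the largest standard errors among the members (0.69 and 0.68).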
